A study of Drosophila melanogaster with 2 samples.

Results

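Among the strongest Ash1-GFP regions of each replicate, 23 regions of replicate 2 and 25 regions of replicate 4 had no counterpart in the other replicate, and these 48 of 60000 listed regions are described here. They were chosen by 2 values of these data. A region had to be among the strongest of its own list by signal value, taken to as many regions as the authors' list of reproducible peaks holds, and no summit of the other replicate's 30000 regions could lie within 500 bp of its own summit. That is 1.47% of the strongest regions in replicate 2 and 1.60% in replicate 4, and the numbers themselves describe the selection and are no test of it. The other strongest regions, 1544 in replicate 2 and 1542 in replicate 4, are called regions with a counterpart.

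The material was chromatin of whole Drosophila melanogaster embryos of both sexes, aged 0 to 24 h, from a transgenic line that stably expresses Ash1 with GFP at its C terminus. Replicates 2 and 4 are biological replicates of this 1 group, with no second genotype, treatment or untagged line analysed here. Whether the tagged protein is made besides or in place of the untagged one is not given in the sources used here, and the embryos of all stages and tissues were pooled. Free text in the labels names both samples input controls, while the antibody, the assay name and the peak lists describe immunoprecipitated chromatin, and they were read as such. The lists hold no read counts, so depth is unknown, and each set rests on 1 library. No set was therefore tested against another. Shares carry exact (Clopper-Pearson) 95% intervals, which cover counting error only.

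Ash1 belongs to the trithorax group, whose members keep developmental genes active where the Polycomb group would otherwise silence them. Its SET domain methylates lysine 36 of histone H3, a modification that hinders the Polycomb methyltransferase, and it works in a complex with the chromodomain protein MRG15 and the histone-binding protein Caf1-55. In Drosophila it is best known for the maintenance of homeotic gene expression, and it is also found at the 5' ends of many active genes.

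The DNA under 3 summits of each set is printed to show the base composition of both sets, with the 201 bp centred on the summit, plus strand, 5′ to 3′, read from the RefSeq copy of the dm6 assembly. They are not the strongest of each set, Cals and Glo1, since windows with annotated UTR bases and some others were passed over. Capitals mark GAGAG (the core of the GAGA factor motif) and GCCAT (the core of the Pleiohomeotic motif) on either strand. Names are those of the gene with the nearest transcription start site (TSS).
lncRNA:CR45246, replicate 2, rank 842, chr3L:10822528-10822728: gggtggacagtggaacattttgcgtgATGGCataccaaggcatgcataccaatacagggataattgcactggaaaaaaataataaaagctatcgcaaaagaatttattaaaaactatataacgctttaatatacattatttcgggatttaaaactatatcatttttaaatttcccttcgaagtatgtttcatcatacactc
lncRNA:CR44867, replicate 2, rank 1046, chr2L:15911985-15912185: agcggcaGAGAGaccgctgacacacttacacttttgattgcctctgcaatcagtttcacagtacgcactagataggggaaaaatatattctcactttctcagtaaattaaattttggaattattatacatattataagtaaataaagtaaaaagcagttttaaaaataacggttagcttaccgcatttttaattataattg
ttk, replicate 2, rank 1049, chr3R:31713335-31713535: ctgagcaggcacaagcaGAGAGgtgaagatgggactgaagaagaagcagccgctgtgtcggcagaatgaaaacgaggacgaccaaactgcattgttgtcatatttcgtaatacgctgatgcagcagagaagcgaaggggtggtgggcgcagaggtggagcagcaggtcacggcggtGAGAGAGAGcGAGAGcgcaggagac
lncRNA:cherub, replicate 4, rank 697, chr3R:11269114-11269314: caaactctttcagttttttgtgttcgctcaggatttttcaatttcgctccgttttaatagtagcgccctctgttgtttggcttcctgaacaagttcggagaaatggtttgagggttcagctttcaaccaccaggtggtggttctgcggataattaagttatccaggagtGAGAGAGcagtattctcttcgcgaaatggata
CG11892, replicate 4, rank 959, chr3R:25281258-25281458: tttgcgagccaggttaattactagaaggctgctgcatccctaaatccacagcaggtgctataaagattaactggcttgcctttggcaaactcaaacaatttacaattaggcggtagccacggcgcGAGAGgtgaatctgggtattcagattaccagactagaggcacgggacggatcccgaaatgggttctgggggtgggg
DIP-delta, replicate 4, rank 1051, chr3L:5447240-5447440: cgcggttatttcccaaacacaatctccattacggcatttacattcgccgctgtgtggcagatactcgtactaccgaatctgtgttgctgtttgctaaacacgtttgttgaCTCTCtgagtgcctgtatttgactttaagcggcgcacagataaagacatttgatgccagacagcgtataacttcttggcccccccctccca
Of the 3 of replicate 2, the windows near lncRNA:CR45246 and at lncRNA:CR44867 were rich in A and T, with a GC content of 31.8% and 31.3%, whereas the window upstream of ttk had 56.2%. The 3 of replicate 4 had 43.3% near lncRNA:cherub, 50.2% at CG11892 and 47.8% near DIP-delta. Bases that the reference soft-masks as repeats or simple sequence, which the letters above do not mark, covered 37.8% of the window near lncRNA:CR45246 and 46.8% of that at lncRNA:CR44867, while the windows at CG11892 and near DIP-delta had none.

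No region among the 500 strongest lacked a counterpart in either replicate. At ranks 501 to 1000 there were 5 in replicate 2 and 8 in replicate 4, and from rank 1001 to the last rank taken there were 18 and 17. The share without a counterpart went on rising down both lists, to 53.9% of replicate 2 and 62.3% of replicate 4 at ranks 25001 to 30000. Over all 30000 regions it was 35.5% in replicate 2 and 40.7% in replicate 4. Ranks ran from 561 to 1559 in the replicate 2 set (median 1407) and from 618 to 1565 in the replicate 4 set (median 1160). Signal values, the peak caller's enrichment over the control on a scale that is not stated, spanned 47.8 to 71.8 in the replicate 2 set and 53.6 to 75.5 in the replicate 4 set, below the highest of 735 and 854 in those lists.

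**Figure D1:**
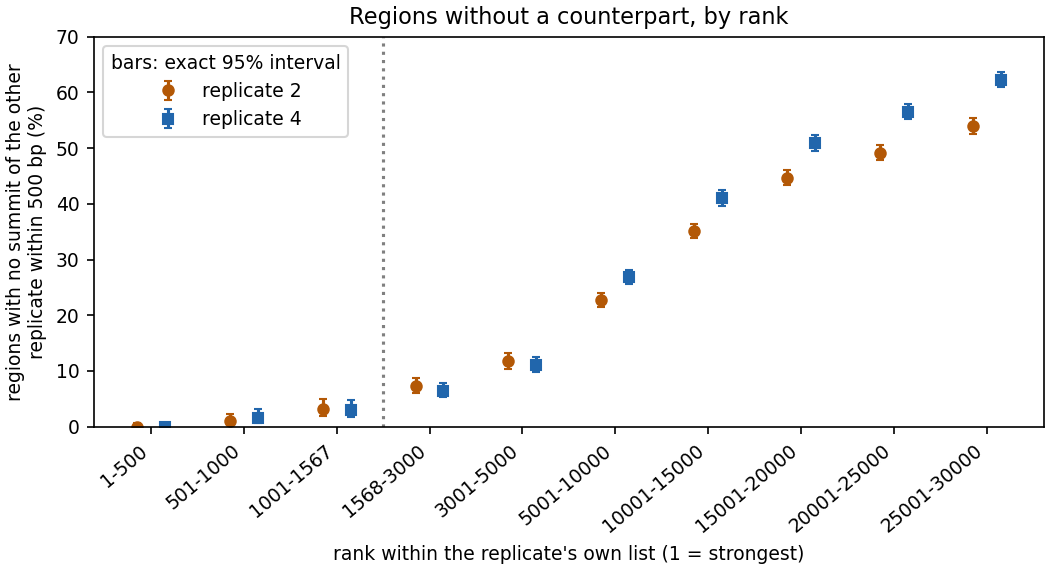
Share of regions with no summit of the other replicate within 500 bp (y axis, %) by rank within the replicate's own list (x axis), for replicate 2 (circles) and replicate 4 (squares), with exact 95% intervals as bars. The dotted line stands after the last rank taken; the share is 0 in both replicates at ranks 1 to 500 and reaches 53.9% and 62.3% in the last bin.

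The selection had sharp edges in values that changed little across them. The weakest region that entered the replicate 2 set lay in an intron of EcR, at rank 1559 with a signal of 47.8, and the next one without a counterpart, near del, was left out at rank 1577 with 47.7. In replicate 4 the last one in was the PAN2 promoter region, at rank 1565 with 53.6, and the first one out was near PKD, at rank 1581 with 53.3. By distance, the spoon region entered with the replicate 4 summit 626 bp away, while the Gk1 region at rank 376 did not, at 497 bp. In replicate 4 the lncRNA:CR44748 region entered at 507 bp and the galectin region at rank 970 did not, at 486 bp.

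The distance to the other replicate was itself part of the selection and is given as a description. In replicate 2, 14 of 23 regions had a replicate 4 summit between 500 and 1000 bp away, 8 had it within 5000 bp, and 1, at CG5381, had it 11804 bp away. In replicate 4, 10 of 25 had a replicate 2 summit between 500 and 1000 bp away, 6 had it within 5000 bp and 9 had none that near. Beyond 5000 bp thus lay 4.35% of the replicate 2 set (interval 0.110 to 21.9) and 36% of the replicate 4 set (18.0 to 57.5). Since every member lies over 500 bp away by construction, the like base is the regions of any rank without a counterpart, of which 7.62% in replicate 2 and 22.3% in replicate 4 lay that far, inside both intervals. The median distance was 927 bp in the replicate 2 set and 2824 bp in the replicate 4 set. For regions with a counterpart it was 42 bp in replicate 2 and 34 bp in replicate 4, under the limit by construction.

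The most distant was the replicate 4 region near DIP-delta, which encodes an immunoglobulin-domain partner of the Dpr cell surface proteins. The nearest replicate 2 summit was 64832 bp away and the nearest other replicate 4 summit 58433 bp. Next came the promoter of lncRNA:CR46102, inside LpR2, at 48823 bp, the CG6073 promoter at 33463 bp, an intron of Msp300 at 24668 bp, the region near lncRNA:cherub at 22938 bp and the PAN2 promoter at 14103 bp. Such distances also occurred among weaker regions, and of those without a counterpart at any rank 0.732% in replicate 2 and 5.52% in replicate 4 lay beyond 20000 bp. Within 2 kb of 4 replicate 2 members and 3 replicate 4 members lay a region that was itself among the strongest of the other replicate, taken to the same number. In replicate 2 these were the members in hth (replicate 4 rank 274), crb (711), lncRNA:CR44867 (1070) and InR (1536), and in replicate 4 those at bchs (replicate 2 rank 242), CG32486 (626) and trbl (982).

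**Figure D2:**
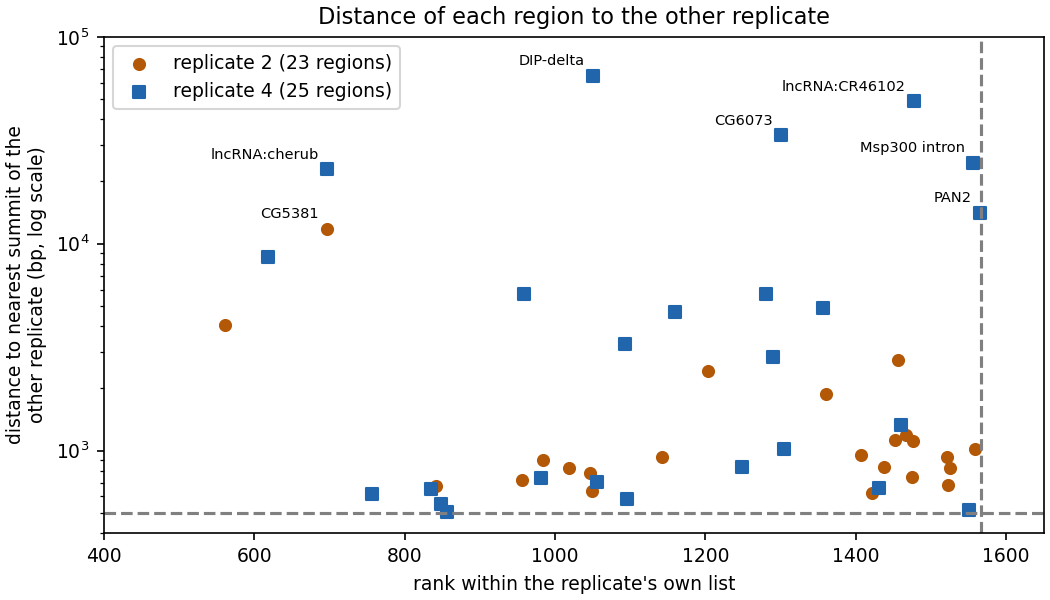
Distance from each summit to the nearest summit of the other replicate (y axis, bp, log scale) against rank within its own list (x axis), for the 23 regions of replicate 2 (circles) and the 25 of replicate 4 (squares). Dashed lines mark the limits of 500 bp and of rank; regions more than 10000 bp away are named, 1 of replicate 2 and 6 of replicate 4.

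In replicate 2, 9 summits lay within 500 bp of a TSS, here called a promoter. The strongest, at rank 697, sat 4 bp from the start of CG5381 on 2L, and replicate 4 had no region anywhere in this gene. Orp8, for an oxysterol-binding protein relative, had its member at rank 1019 and 248 bp, and ttk, for the BTB zinc finger repressor Tramtrack, at rank 1049 and 432 bp. The start of Cnot4, which encodes the ubiquitin ligase of the CCR4-NOT complex, was 46 bp from a summit at rank 1203. The others were at spoon, at CG7668, at CG44838 (30 bp inside the gene, with the divergent start of CG3434 also within 500 bp), at the starts of lncRNA:CR44867 and lncRNA:CR44868 inside beat-Ib, and at the microRNA gene mir-4978 inside mam, which encodes the Notch coactivator Mastermind.

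The strongest member of replicate 2 was in a 3' UTR. Its summit at 1113173 on chromosome 4, rank 561 with a signal of 71.8, lay where sv and Cals overlap, 9792 bp from the nearest TSS. sv encodes the Pax2 homologue Shaven and Cals a calsyntenin, a transmembrane protein of neurons. Within sv, 20 replicate 2 regions and 9 replicate 4 regions had their summits, and within Cals 4 and 0. The other member on this chromosome was intronic in Pur-alpha at rank 1360, where replicate 2 had 2 regions and replicate 4 none. Chromosome 4 thus held 2 of 23 members of replicate 2 (8.70%, interval 1.07 to 28.04) and none of replicate 4, beside 342 and 194 of all 30000 regions.

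Introns held as many replicate 2 members, 9. Their host genes were hth, encoding the Hox cofactor Homothorax, EcR, the ecdysone receptor, crb, the apical polarity protein Crumbs, nmo, the kinase Nemo, InR, the insulin receptor, fra, the netrin receptor Frazzled, Hipk, a homeodomain-interacting kinase, Sarm, an NADase of axon degeneration, and Pur-alpha. Most of these genes were covered by many regions of both replicates. hth alone held 158 summits of replicate 2 and 144 of replicate 4, with the strongest at ranks 61 and 46, and its member, at rank 1521, was 1 of them. InR held 48 and 39 (strongest ranks 92 and 83), EcR 62 and 51 (296 and 97), nmo 54 and 37 (419 and 653), and Hipk 29 and 31 (465 and 259). crb held fewer, 6 and 7, with the member itself at rank 1407 as its strongest in replicate 2. The 4 intergenic members lay 1052 to 2822 bp from the TSSs of CG33080, out, lncRNA:CR45246 and lncRNA:CR45292.

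In replicate 4, 16 of 25 summits were at promoters. The strongest, at rank 618 with a signal of 75.5, lay 44 bp from the start of Glo1, which encodes the glyoxalase that removes methylglyoxal. The nearest replicate 2 summit was 8596 bp away. Sumo, the small ubiquitin-like modifier, had its member at rank 982 and 18 bp from the TSS. bchs, for a BEACH protein linked to autophagy, had it at rank 1096 and 107 bp. Another replicate 4 region at a TSS of bchs was stronger, at rank 234. Hsc70-4, for the constitutive Hsp70 cognate, shared a summit at rank 1305 with the divergent tefu, the fly ATM kinase. The garz promoter, of an Arf exchange factor, shared 1 at rank 1357 with CG8841, and that of PAN2, of the poly(A) nuclease, 1 at rank 1565 with AIMP1, of the tRNA synthetase complex. The promoters between CG4612 and Brca2, the homologue of the recombination mediator, and between pirk, a brake on Imd immune signalling, and lncRNA:CR44748 were divergent too. The remaining 8 were those of CG30015, Gip, CG11892, l(3)psg2, CG6073, trbl (the pseudokinase Tribbles), Golgin245 and lncRNA:CR46102.

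Outside promoters, replicate 4 had 6 members in introns, 2 between genes and 1 in a noncoding exon. The intronic ones lay in ttv near LamC, in RluA-1, CG32486, Crtc, Ifrd1 and Msp300. LamC encodes an A-type lamin, Crtc a coactivator of CREB, and Msp300 a giant nesprin of the nuclear envelope in muscle. The exonic member was in lncRNA:CR43459, 1960 bp from mir-277, at rank 1056. The intergenic ones, near lncRNA:cherub and DIP-delta, were 13091 and 11181 bp from a TSS. Of the host genes, CG32486 had some of the strongest regions of both lists, at rank 63 in replicate 2 and 58 in replicate 4, while RluA-1 had 1 region of replicate 2 and 3 of replicate 4.

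Set side by side, the promoter share was 39.1% in the replicate 2 set (interval 19.7 to 61.5) and 64% in the replicate 4 set (42.5 to 82.0), and these intervals overlap. Among the 3000 strongest regions of each list the order turned, with 53.9% in replicate 2 and 52.5% in replicate 4. Because the members crowd the lower ranks, the closest base is the regions with a counterpart from the rank of the strongest member down, 984 in replicate 2 and 925 in replicate 4. Among those, 54.0% and 55.5% were at promoters, inside both intervals. Over all 30000 regions the share was 29.96% in replicate 2, inside the interval of its set, and 27.2% in replicate 4, below that of its set. Introns held 39.1% of the replicate 2 set and 24% of the replicate 4 set, and the space between genes 17.4% and 8%. Neither set had a summit in a coding exon, which for 23 and 25 regions allows up to 14.8% and 13.7%. The regions with a counterpart in the same ranks had 1.02% and 1.19% there and all regions 7.46% and 15.7%. The median distance to a TSS was 1052 bp in the replicate 2 set and 157 bp in the replicate 4 set.

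**Figure D3:**
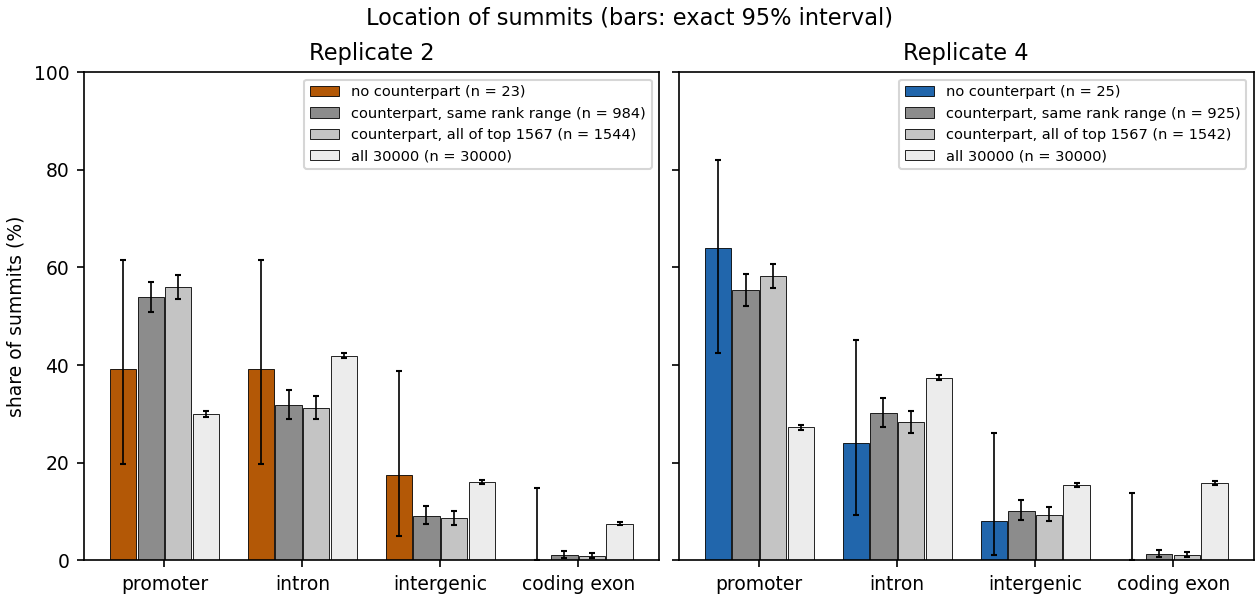
Share of summits by location (y axis, %) for replicate 2 (left) and replicate 4 (right), with exact 95% intervals. In each cluster the coloured bar is the set without a counterpart, then come regions with a counterpart in the same rank range, all strongest regions with a counterpart and all 30000 regions; the coloured bars for promoters stand at 39.1% and 64%, and both are 0 for coding exons. The rare classes of 5' UTR, 3' UTR and noncoding exon are not drawn.

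Promoter summits without a counterpart had a larger median distance from the start than those with a counterpart in the same ranks. The median was 162 bp in replicate 2 (9 summits) and 89 bp in replicate 4 (16 summits), against 91 and 53 bp. Over all promoter summits of the lists it was 125 and 119 bp. The replicate 4 members were thus nearer to the start than their list, and those of replicate 2 farther. Divergent starts of a pair of genes lay within 500 bp of 1 of 23 members in replicate 2 (4.35%, interval 0.110 to 21.9) and 5 of 25 in replicate 4 (20%, 6.83 to 40.7). Such pairs were found at 14.8% and 11.4% of the regions with a counterpart in the same ranks, inside both intervals.

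At the level of genes, 12 had a replicate 2 member at a TSS and 21 had a replicate 4 member, and no gene had both. Members of different sets lie over 500 bp apart by construction, so the lack of a shared gene is partly set by the selection. The genes with a member made up 1.06% of the 1129 genes with 1 of the strongest regions of replicate 2 at a TSS and 1.82% of the 1155 of replicate 4. Of the 12 genes of replicate 2, 6 also had some replicate 4 region at a TSS, and of the 21 genes of replicate 4, 5 had some replicate 2 region there. Since a member has no neighbour within 500 bp, such a region is at another position or another TSS, and these counts are partly set by the selection. Of all genes with 1 of the strongest replicate 2 regions at a TSS, 1118 of 1129 (99.0%) had a replicate 4 region there. For replicate 4 the like count was 1126 of 1155 (97.5%). At the genes with members, these regions of the other replicate ranged from strong to weak. They held rank 1834 at ttk, 2107 at spoon, 4771 at CG44838, 15068 at CG3434, 17341 at Orp8 and 26078 at lncRNA:CR44867 in replicate 4. In replicate 2 they held rank 242 at bchs, 982 at trbl, 1826 at pirk, 6344 at Hsc70-4 and 14588 at CG30015.

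Few of the genes in the 20 lists examined had a member. In 17 of 20 lists neither set had a member at a TSS, among them the Hox, segmentation, Polycomb group and trithorax group genes, the last including ash1 itself. Over all 18164 genes only 12 and 21 had a member at a TSS, and these 4 lists had 4 to 9 genes each with a strongest region in either replicate, so lists of this size would hold few or none at the shares over all genes given above. The cytoplasmic ribosomal protein genes had 45 genes with 1 of the strongest replicate 2 regions and 57 with 1 of replicate 4, and none of their regions was a member. The exceptions were Hsc70-4 among 18 heat shock and chaperone genes (replicate 4), mir-4978 among 260 microRNA genes (replicate 2), and among 1944 long noncoding RNA genes lncRNA:CR44867 and lncRNA:CR44868 (replicate 2) and lncRNA:CR44748 and lncRNA:CR46102 (replicate 4). hth and EcR, from the lists of developmental transcription factors and ecdysone response genes, had their members in introns only.

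The sets differed in the company their regions kept. Within 10 kb of a summit, the replicate 2 members had a median of 12 other regions of replicate 2 (quartiles 9 and 17.5), close to the 13 of regions with a counterpart in the same ranks and above the 10 of all regions. The replicate 4 members had a median of 5 other regions of replicate 4 (quartiles 3 and 7), against 11 (7 and 16) for those with a counterpart and 8 (5 and 13) for all regions. The selection did not use this count directly. It did bear on crowding in the other list, which may go along with crowding in the own list, so the contrast is not independent of the selection. Counted in the other list, members of replicate 2 had a median of 9 replicate 4 regions within 10 kb and those of replicate 4 had 3 replicate 2 regions, against 12 and 13 with a counterpart. The most crowded was the hth member, with 26 regions of replicate 2 and 28 of replicate 4, and among the emptiest were DIP-delta, with none of either, and PAN2, with 2 of replicate 4 and none of replicate 2. The trbl member was the most crowded of replicate 4, with 22 and 22, and those at Sumo, CG32486, Ifrd1, Crtc and mir-277 had 11 to 13 regions of their own list.

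Very close neighbours within a list showed another contrast. In 6 of 23 replicate 2 members (26.1%, interval 10.2 to 48.4) and in none of 25 replicate 4 members (up to 13.7%) another summit of the same list lay within 250 bp. These 6 were at Cals, CG5381, lncRNA:CR45246, Orp8, lncRNA:CR44867 and in Hipk, each with a neighbour 202 to 211 bp away. The same difference ran through the whole lists, in which 22.95% of all replicate 2 regions and 3.03% of all replicate 4 regions had so near a neighbour, and summits came no closer than 199 bp in either. Among regions with a counterpart in the same ranks the shares were 38.6% in replicate 2 and 3.135% in replicate 4, inside both intervals.

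**Figure D4:**
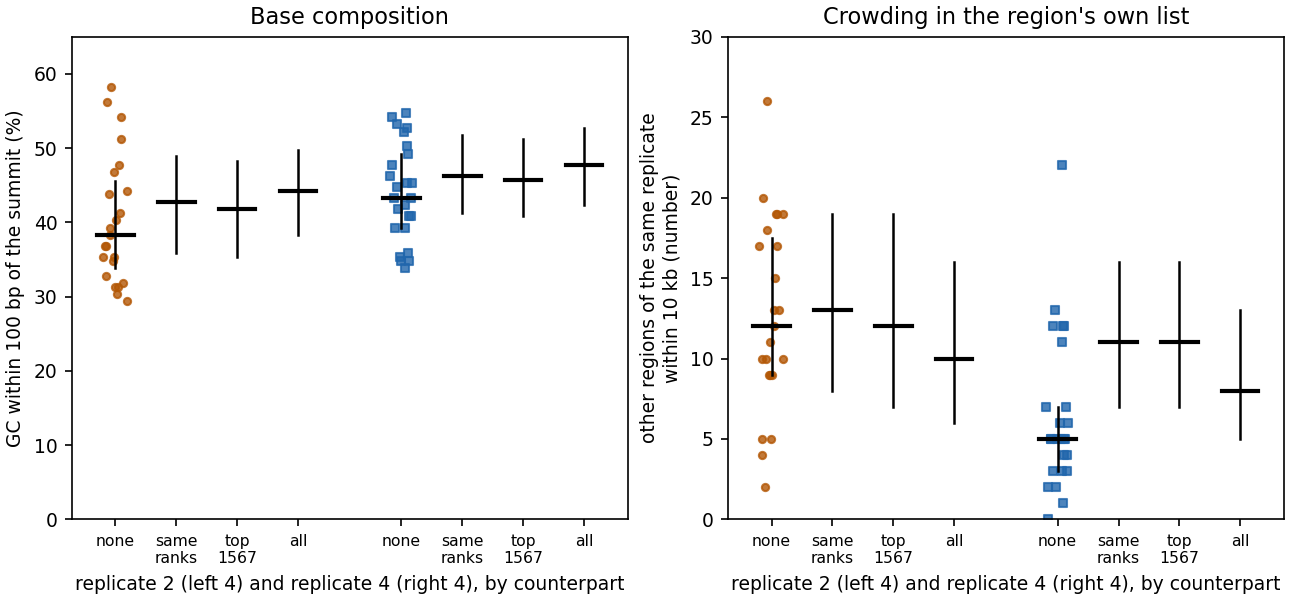
GC content within 100 bp of the summit (left, %) and number of other regions of the same replicate within 10 kb (right), each point 1 region without a counterpart (circles replicate 2, squares replicate 4); thick bars are medians and thin bars run between the quartiles. The members ("none") stand beside regions with a counterpart in the same ranks, all strongest with a counterpart and all 30000; median GC is 38.3% and 43.3% in the sets, and the median number of neighbours 12 and 5.

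At the main settings, median GC was lower in both sets than in their own lists. For replicate 4 this did not hold when a counterpart had to lie within 250 bp, where the set's median was 47.8%, as in all regions of that list. Within 100 bp of the summit, median GC was 38.3% in the replicate 2 set (29.4 to 58.2, SD 8.61) and 43.3% in the replicate 4 set (33.8 to 54.7, SD 6.539). Regions with a counterpart in the same ranks had 42.8% and 46.3%, and all regions 44.3% and 47.8%. The sets differed by -4.98 percentage points, replicate 2 minus replicate 4. This gap depended on the settings. Medians were 41.5% and 42.5% with 250 bp on each side, 40.5% and 41.5% over the whole deposited region, and 35.6% and 45.5% with 50 bp on each side. The deposited regions of the members were 400 bp wide in replicate 2 and 270 bp in replicate 4, so that setting compares unlike windows. The medians were 38.3% and 47.8% when a counterpart had to lie within 250 bp, and 37.3% and 45.3% among the 3000 strongest. Among the 1000 strongest, with only 5 and 8 members, they were 32.8% and 45.5%. Regions with a counterpart in the same ranks and all regions each differed by -3.48 points, so most of the gap between the sets is also present between the lists, and the values of the sets overlap widely. A GC content under 40% was found in 13 of 23 replicate 2 members (56.5%, interval 34.5 to 76.8) and 7 of 25 replicate 4 members (28%, 12.1 to 49.4), against 41.3% and 20.4% with a counterpart in the same ranks. At promoters the medians were close, 43.8% in replicate 2 and 44.0% in replicate 4, while elsewhere they were 37.6% and 43.3%.

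The AT-rich end of the replicate 2 set held CG7668 (29.4%), the fra intron (30.3%), lncRNA:CR44867 and Sarm (both 31.3%) and lncRNA:CR45246 (31.8%). Its GC-rich end held the EcR intron (58.2%), ttk (56.2%), mir-4978 (54.2%) and the InR intron (51.2%). In replicate 4 the lowest were l(3)psg2 (33.8%), LamC and Golgin245 (both 34.8%) and lncRNA:CR46102 (35.3%), and the highest trbl (54.7%), PAN2 (54.2%) and CG32486 (53.2%). Soft-masked bases covered a median of 23.4% of the windows in the replicate 2 set and 9.95% in the replicate 4 set, against 14.9% and 11.4% with a counterpart in the same ranks. An annotated transposable element overlapped none of the replicate 2 members (up to 14.8%) and 2 of the replicate 4 members (8%, interval 0.984 to 26.0), an mdg1 element at Sumo and a Tirant element in CG32486. Such overlaps occurred in 0.203% and 0.757% of the regions with a counterpart in the same ranks and in 0.763% and 0.48% of all regions. All 48 windows matched a single place of the genome at an identity of 90% or more over at least 50 bp.

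Sequence motifs were searched on both strands of the same 201 bp. GAGAG occurred in 7 of 23 replicate 2 members (30.4%, interval 13.2 to 52.9) and 7 of 25 replicate 4 members (28%, 12.1 to 49.4), beside 35.9% and 39.1% with a counterpart in the same ranks and 27.1% and 28.4% of all regions. GCCAT occurred in 7 and 6 members (30.4% and 24%), beside 28.05% and 35.5% with a counterpart and 35.5% and 39.9% of all. The TATA box TATAAA was in 9 replicate 2 members (39.1%, 19.7 to 61.5) and 6 replicate 4 members (24%, 9.36 to 45.1), beside 23.8% and 15.03% with a counterpart and 19.3% and 13.2% of all. The DREF element TATCGATA and the M1BP core GGTCACACT, both known from promoters of broadly active genes, were in none of the replicate 2 members (up to 14.8%) and in 2 replicate 4 members each (8%, 0.984 to 26.0). They were in 2.64% and 2.13% of the replicate 2 regions with a counterpart in the same ranks, and in 4% and 2.92% of those of replicate 4. Over all regions the shares were 1.61% and 0.91% in replicate 2, and 1.27% and 0.857% in replicate 4. The repeat GTGTGT was in 2 replicate 2 members (8.70%, 1.07 to 28.04) and 5 replicate 4 members (20%, 6.83 to 40.7). It was in 22.9% and 26.1% with a counterpart in the same ranks and in 18.9% and 18.6% of all regions. CACGTG and TTGTTTAC, an E-box and a Fork head motif, had no match in either set, but were in only 2.73% and 2.72% of all replicate 2 regions and 3.31% and 2.3% of all replicate 4 regions.

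The pooled list, called on the reads of both replicates together, is not independent of either. Of the replicate 2 members 20 of 23 (87.0%) and of the replicate 4 members 20 of 25 (80%) had a pooled region within 500 bp, compared with 99.8% and 100% of those with a counterpart in the same ranks. That difference is partly set by the selection. Those absent from the pooled list included the strongest of each set. In replicate 2 they were Cals, CG5381 and Pur-alpha, with own ranks of 561, 697 and 1360. In replicate 4 they were Glo1, LamC, DIP-delta, garz and lncRNA:CR46102, with own ranks of 618, 835, 1051, 1357 and 1477. Where present, the median pooled rank was 4558 for replicate 2 members (2268 to 7676) and 2652 for replicate 4 members (635 to 5547).

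The authors' irreproducible discovery rate (IDR) peaks, the regions that passed their threshold of agreement, included none of the 23 replicate 2 members (up to 14.8%) and 5 of the 25 replicate 4 members (20%, interval 6.83 to 40.7). These counts hold for IDR peaks within 500 bp. With IDR peaks up to 1000 bp away, the shares were 13.0% in the replicate 2 set and 28% in the replicate 4 set. Such a peak lay within 500 bp of 6.9% of all replicate 2 regions and 6.36% of all replicate 4 regions, and of 61.1% and 61.9% of those with a counterpart in the same ranks. Both intervals lie below the shares with a counterpart in the same ranks. Members lack a counterpart by selection, so this contrast is not independent of it. Between which reads the authors judged agreement is not given in the sources used here. How far the selection sets the contrast was not tested. Against all ranks, which are mostly weaker regions, the interval of the replicate 2 set holds its list's share. That of the replicate 4 set, from 6.83%, lies just above its list's 6.36%. The 5 replicate 4 members were lncRNA:cherub (pooled rank 1128, own rank 697), CG11892 (874, 959), l(3)psg2 (779, 1160), the Msp300 intron (635, 1556) and PAN2 (1050, 1565). The last 4 thus stood higher in the pooled list than in their own, although their nearest replicate 2 summits were 4669 to 24668 bp away. No replicate 2 member ranked higher in the pooled list than in its own, where 37.9% of the regions with a counterpart in the same ranks did so, and 35.6% of those of replicate 4. Members were chosen for lacking a region of the other replicate nearby, so this contrast is partly set by the selection.

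**Figure D5:**
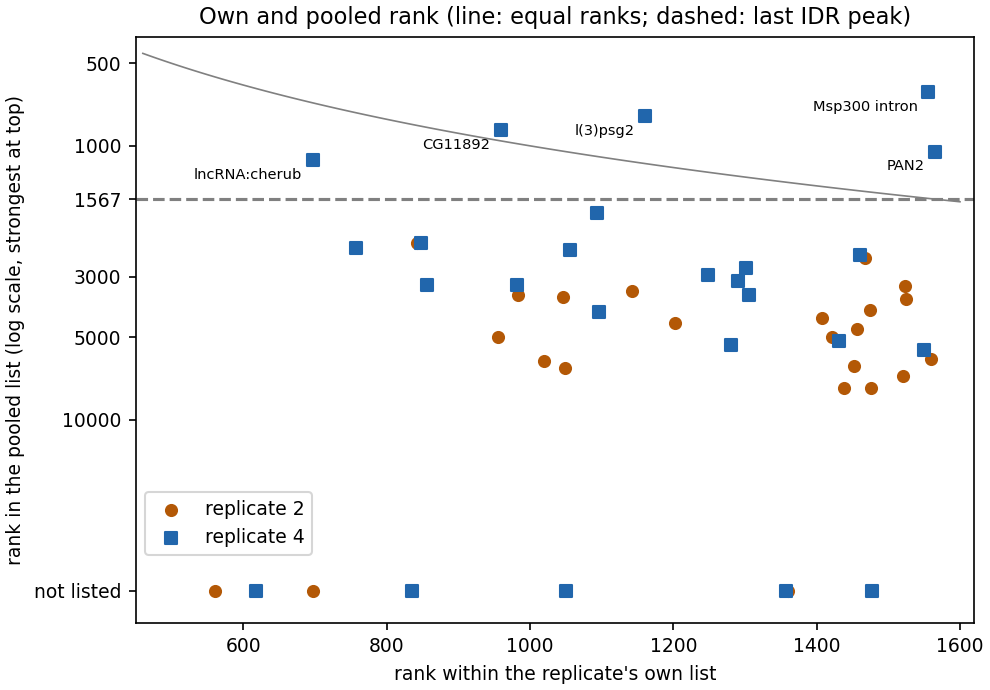
Rank in the pooled list (y axis, log scale with the strongest at the top) against rank in the replicate's own list (x axis), for members of replicate 2 (circles) and replicate 4 (squares); the 3 and 5 members without a pooled region within 500 bp are drawn at "not listed", where 2 near rank 1360 overlap. The curve marks equal ranks and the dashed line the pooled rank that equals the number of IDR peaks; the 5 named squares above that line are the members at an IDR peak.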

How the data were processed

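Chromatin immunoprecipitation with sequencing was analysed from the deposited peak lists of replicates 2 and 4, of both pooled and of the IDR peaks, all in dm6. From each replicate's 30000 regions the 1567 strongest were taken. Per the text deposited beside them, both lists were called, peaks with background, against the same control alignment. What aligned the reads, called the regions and set the IDR limit is not given in the sources used here. For each region, the deposited signal is the authors' enrichment over the control and was used for ranking only. The deposited −log10 q-value was at its maximum in every member, and in 19.7% of replicate 2 and 7.89% of replicate 4, so it did not rank regions. The authors' start, end and summit offset gave positions, printed 1-based.

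Genes and TSSs came from Ensembl release 115 without transposable elements, and a summit within 500 bp of a TSS was classed as promoter before exons, UTRs and introns were considered. Distances, windows and shares were computed with Python 3.11.15, pandas 2.3.3 and scipy 1.17.1, repeats of a window were searched with blastn 2.17.0, and the code was tested on simulated regions. Depth is unknown. Named are the genes nearest to the 10 strongest members of each set, list genes with a member at a TSS, and ash1; other members were named after their values were seen. The rule foresaw 3 sequences a set. Windows with UTR bases were skipped, a choice made after the data were seen, and 1 sequence is not reported here. The comparison within the same ranks was also chosen then. Members and lists were chosen with earlier results of these data known. Alternatives were other distances, list depths, windows and gene sets.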

Additional observations from a re-analysis of the deposited data

How the results depend on the processing

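The number of regions depended on the limits of the selection. In the replicate 2 set, 23 regions became 63 with a summit distance of 250 bp, 9 with 1000 bp, 36 with overlap of regions in place of distance, and 68 with the 15000 strongest regions of the other replicate. In the replicate 4 set, 25 became 72, 15, 45 and 65. The share without a counterpart was 0% and 0% among the 500 strongest, 0.5% and 0.8% among the 1000 strongest, and 4.27% and 3.93% among the 3000 strongest, for replicates 2 and 4. Among the 1000 strongest, 40% of the replicate 2 set were intergenic, but only 5 members remained there. The cause was not tested. The other 65 of 80 alternatives stayed within the interval of the main share or within 1 SD of the main GC content. These limits are wide for sets of 23 and 25 regions, and the SD is that of single windows. Staying within them therefore says little about stability. The promoter share ranged from 20% to 53.9% in the replicate 2 set and from 52.5% to 75% in the replicate 4 set. The 20% and the 75% came from the 1000 strongest, with only 5 and 8 members. With the 3000 strongest the order of the sets turned, at 53.9% and 52.5%. The gap in GC content ran from 41.5% and 42.5% with 250 bp on each side of the summit to 32.8% and 45.5% among the 1000 strongest. Merging of members under 1000 bp apart joined none. With the 500 strongest there were no members, so no shares could be had, and leaving out a replicate was not possible because the selection needs both. Sets of 23 and 25 regions leave wide intervals, and without read counts the depth of either list is unknown.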

Other observations

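Farther down the lists the base composition of regions without a counterpart took opposite sides of those with one. In replicate 2 the regions without a counterpart had the lower median GC in each rank bin that held any, with 37.3% against 43.3% just below the strongest, down to rank 3000, and 42.3% against 44.8% at ranks 5001 to 10000. In replicate 4 they had the lower one in both bins of strongest regions that held any, with 42.3% against 45.8% from rank 1001 on. They had the higher one in every bin below the strongest, with 50.2% against 46.3% at ranks 5001 to 10000. The promoter share at those last ranks was 34.4% without and 36.4% with a counterpart in replicate 2, and 24.1% and 33.5% in replicate 4. These are medians and shares within 1 library each and were not tested.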
